A study of Mus musculus with 58 samples.

Results

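The transcription of 10 autosomal genes that respond to extracellular signal-regulated kinase (ERK) was followed through a mouse X inactivation experiment. The genes are the ERK phosphatases Dusp4 and Dusp6, the Sprouty inhibitors Spry2 and Spry4, the ETS transcription factors Etv4 and Etv5, and the immediate early genes Egr1, Fos, Ier3 and Myc. They were taken by name as outputs of the pathway and are 10 of 22556 genes in the count tables. All 10 passed the low-count filter that left 16227 genes for testing.

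The measurement was chromatin-associated RNA sequencing (ChrRNA-seq), which samples RNA still attached to chromatin and so is rich in unspliced transcripts. The series holds 58 libraries in 28 groups, of which 26 have 2 libraries and 2 have 3. All came from female 129S x Cast hybrid embryonic stem (ES) cells in which the promoter of Xist, the RNA that silences the X chromosome, was replaced by a doxycycline-inducible TetOn promoter on the 129S allele, called Dom here. Libraries held 2292261 to 30005305 fragments in genes.

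There were 6 lines. WT carried the inducible Xist alone. SPOC also carried a mutation of the SPOC domain of SPEN, a protein that Xist recruits, in clones C11, D9 and H1. Clone C11 has ES libraries only, so the SPOC libraries from NPC cultures are of D9 and H1. PCGF35 carried FKBP12 degron tags on PCGF3/5, subunits of a Polycomb complex, and was cultured without or with the degrader dTAG-13, added at 100 uM according to the labels, 12 hours before doxycycline. PCGF35_SPOC joined both changes in clones F10 and F6 and had the same treatments. DelPID lacked the Xist region that brings in the Polycomb complex, and DelPID_SPOC added the SPOC mutation in clones A8 and G3. The study describes a DelPID_SPOC clone that it prints as G, taken here as G3, as tetraploid. ES cells grew with serum and LIF and were sampled before (day 0) or 1 day after doxycycline at 1 ug/mL. Cultures on the way to neural precursor cells (NPC) grew in N2B27 without serum or LIF, with doxycycline throughout, and were sampled at day 3 and day 6. Medium, differentiation and time on doxycycline therefore changed together and cannot be told apart. ES libraries of WT and DelPID were not analysed here, so each ES to NPC change was measured in 6 arms: SPOC, PCGF35 and PCGF35_SPOC without dTAG-13, both of these with it, and DelPID_SPOC. The 2 libraries of a PCGF35, WT or DelPID group are repeat experiments with a single line, so p-values there measure the spread between experiments and not between clones.

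As background, fibroblast growth factors and other ligands activate receptor tyrosine kinases, RAS and RAF, which switch on the kinases MEK and then ERK. Active ERK induces immediate early genes such as Fos and Egr1 within minutes and then ETS factors and its own inhibitors, the DUSP phosphatases and Sprouty proteins, so that the RNA of these genes is a common readout of the pathway. In mouse ES cells the pathway promotes exit from naive pluripotency, serum is a strong inducer of immediate early genes, and female cells with a pair of active X chromosomes are known for altered ERK signalling.

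The promoters of the immediate early gene with the largest change and of the Dusp6 phosphatase are shown as the 250 bases before the start site, from RefSeq on build GRCm38.p6. Windows were found for 5 of the 10 genes (Dusp6, Spry2, Etv5, Fos and Ier3). Capitals mark TGACGT, the core of a cyclic AMP response element, TATAAA, the TATA box, and CGGAAG, the core bound by ETS factors, or its reverse complement CTTCCG. Both strands were searched.

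Fos chr12:85473640-85473889 (+): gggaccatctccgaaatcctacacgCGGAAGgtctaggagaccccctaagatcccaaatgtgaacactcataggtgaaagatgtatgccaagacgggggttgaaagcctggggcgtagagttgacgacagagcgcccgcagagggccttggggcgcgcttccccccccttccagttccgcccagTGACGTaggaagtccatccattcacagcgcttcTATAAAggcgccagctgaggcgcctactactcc

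Dusp6 chr10:99262981-99263230 (+): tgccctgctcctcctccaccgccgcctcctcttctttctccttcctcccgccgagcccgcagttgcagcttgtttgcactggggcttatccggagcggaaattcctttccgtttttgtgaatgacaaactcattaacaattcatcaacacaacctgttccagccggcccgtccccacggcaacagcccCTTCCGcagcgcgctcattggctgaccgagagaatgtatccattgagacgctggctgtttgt

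Counted from the start site, TGACGT lay at -66, TATAAA at -33 and CGGAAG at -225 in Fos, and CGGAAG on the opposite strand at -62 in Dusp6. None of these overlapped. Across 32851 windows of the same length, TGACGT was present in 6.47%, TATAAA in 12.4% and CGGAAG in 13.6%. The AP-1 element TGACTCA was present in 4.46% and the CArG box of serum response factor in 1.47%. Neither was in any of the 6 windows of the 5 genes. Sequence farther upstream was not searched, nor were genes without a window, Egr1 among them. Absence from these windows therefore does not show that a promoter lacks an element.

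Levels are given as CPM, the count of a gene scaled to the total of fragments in genes of its library, so that levels compare between libraries of unequal depth. Etv5 was the most abundant of the 10, with 118 to 464 CPM at ES day 0 (median 218, 13 libraries). Ier3, with 0.68 to 4.27 CPM (median 2.67) there, was the least abundant. Etv5 is also the longest gene, at 58259 bases, and Ier3 the shortest, at 1200 bases. Per kilobase of gene, the order of median levels in ES libraries was Egr1 (9.09 CPM per kb), Fos (8.06), Etv5 (3.78), Dusp6 (2.47), Spry2 and Ier3 (2.04 each), Spry4 (1.67), Dusp4 (1.36), Etv4 (0.78) and Myc (0.68). In NPC libraries Etv5 led with 3.84, followed by Dusp6 (2.97), Egr1 (2.69) and Spry2 (2.52), and Fos stood at 1.29 CPM per kb. Neighbours in these orders overlapped between libraries. The pooled standard deviation (SD) of log2 CPM between libraries of a group was smallest for Spry2 (0.28) and largest for Egr1 (0.69), with Etv4 at 0.64 and Fos at 0.61.

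**Figure D1:**
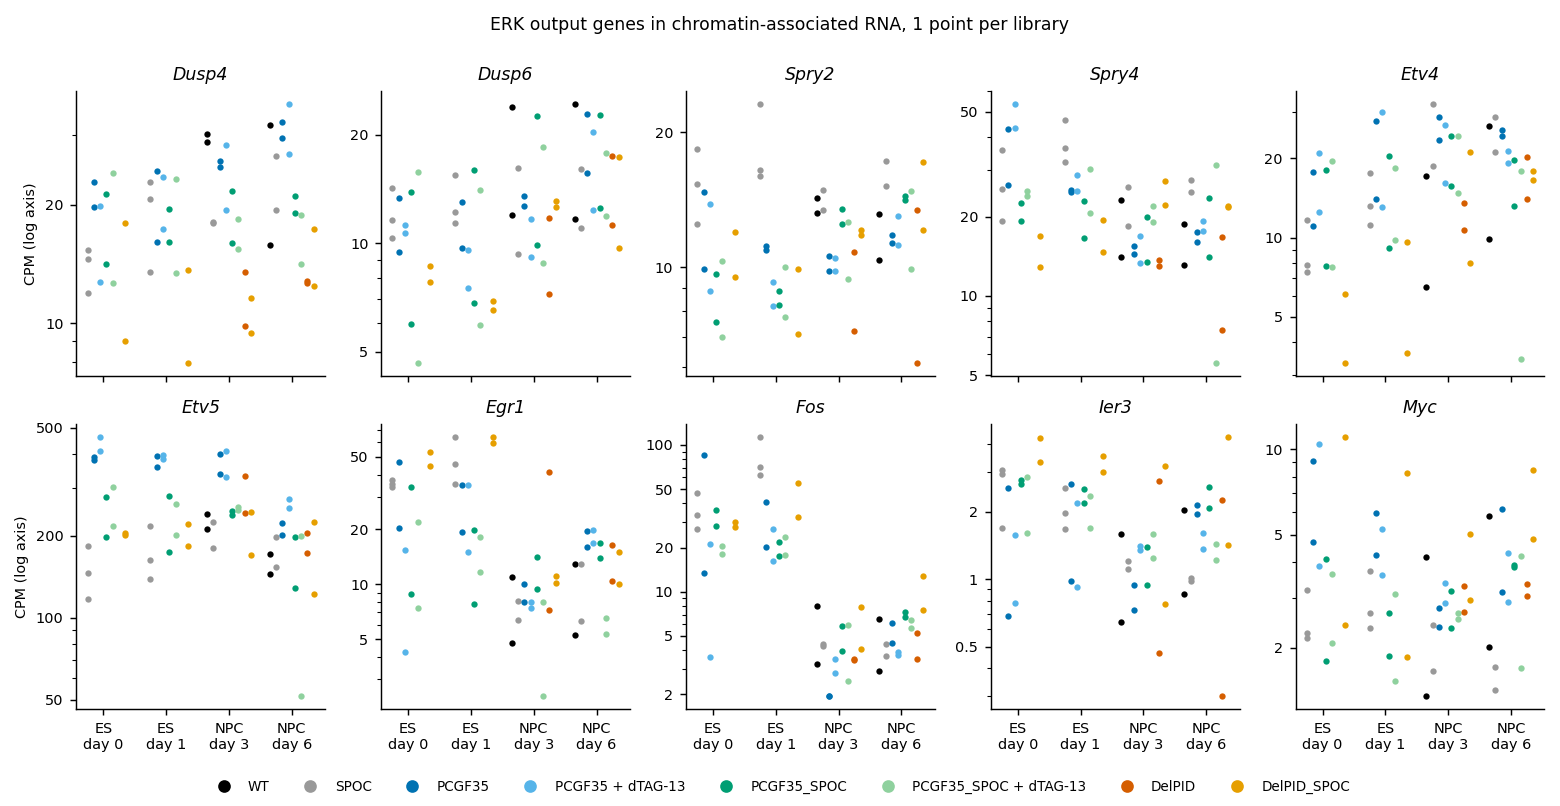
CPM (log axis) of the 10 genes in each of the 58 libraries, by stage and day, with the line and treatment in colour and 1 point per library. Fos falls from ES to NPC almost without overlap, Dusp4, Dusp6 and Etv4 shift upwards with overlap, and the single Ier3 library with 0 counts is drawn at 0.3 CPM.

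The question asked of the ES and NPC libraries was how the output of the pathway changed as cells left the ES state. At day 6, 4 of the 10 genes were higher than at ES day 0 and 4 were lower (edgeR quasi-likelihood test on the mean of 6 arms, Benjamini-Hochberg adjusted p below 0.05). Among all genes tested 58.9% passed the same test, 29.4% in each direction, so 8 of 10 is close to the share of genes in general. The median log2 fold change of the 10 was -0.31, beside 0.00474 for all genes. At day 3, 1 gene was higher and 5 were lower, beside 26.4% of all genes higher and 29.2% lower, 55.6% in all. The median was -0.17 beside -0.0179 for all genes. Days 3 and 6 were compared with the same ES day 0 libraries, so both comparisons share the error of those libraries. In bulk RNA, fewer cells of a kind and less RNA per cell cannot be told apart.

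**Figure D2:**
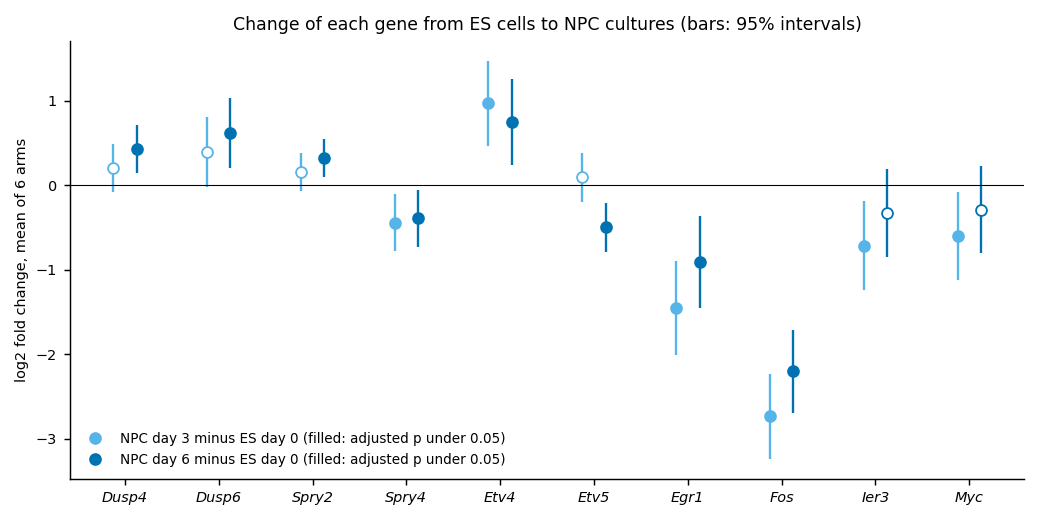
Log2 fold change of each gene from ES day 0 to NPC day 3 (light) and day 6 (dark), the mean of 6 arms, with 95% intervals, filled where the adjusted p is below 0.05. Fos and Egr1 lie lowest at both days, Etv4 highest, and the 2 phosphatases and Spry2 clear 0 at day 6 only.

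The phosphatases rose at day 6. DUSP4 is a nuclear and DUSP6 a cytoplasmic phosphatase that removes the activating phosphates of ERK. Dusp4 (chr8:34807609-34819894, plus strand, mm10) stood at 9.03 to 24.1 CPM at ES day 0 (median 15.4) and at 12.4 to 36.1 CPM at NPC day 6 (median 19.2). Dusp6 (chr10:99263230-99267489, plus strand) went from 4.63 to 15.8 CPM (median 10.7) to 9.66 to 24.4 CPM (median 15.9). The ranges of both genes overlapped between stages. Dusp4 was 1.35-fold higher at day 6 (log2 0.43 ± 0.14 SE, adjusted p = 0.00888) and Dusp6 1.54-fold higher (log2 0.62 ± 0.20, adjusted p = 0.00898). At day 3 the changes were 0.20 ± 0.14 (adjusted p = 0.22) and 0.39 ± 0.20 (adjusted p = 0.0999), which did not pass. Without the PCGF35 line, Dusp4 changed by 0.26 at day 6 (adjusted p = 0.208) and Dusp6 by 0.59 (adjusted p = 0.0454). Dusp6 passed at day 3 when 1 of the clone F10 libraries of PCGF35_SPOC at ES day 0 was left out, without dTAG-13 (log2 0.52, adjusted p = 0.0315) or with it (log2 0.59, adjusted p = 0.0127). In a fit blocked on clone or replicate number (the replicate block), Dusp6 also passed at day 3 (log2 0.43, adjusted p = 0.00204).

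The Sprouty genes, whose products block the pathway between receptor and RAF, went in different directions. Spry2 (chr14:105891946-105896819, minus strand) had 7.01 to 18.4 CPM at ES day 0 (median 10.3) and 6.11 to 17.3 CPM at NPC day 6 (median 13.1), a 1.25-fold rise (log2 0.33 ± 0.11, adjusted p = 0.0113). Spry4 (chr18:38586264-38601268, minus strand) had 12.8 to 53.7 CPM (median 25.1) and 5.53 to 31.4 CPM (median 18.2). On average it was lower at day 6 (log2 -0.39 ± 0.17, adjusted p = 0.0434) and at day 3 (log2 -0.44 ± 0.17, adjusted p = 0.0235). The Spry4 fall rested on the PCGF35 line. There the 4 ES day 0 libraries had 43.2 and 26.5 CPM without and 43.4 and 53.7 CPM with dTAG-13, against 15.9, 17.4, 19.3 and 17.7 CPM at day 6. Without that line the mean change was 0.0242 at day 6 (adjusted p = 0.933) and 0.018 at day 3 (adjusted p = 0.952). The day 6 call of Spry4 was held in 10 of 25 fits that each left out 1 library, in which the change ran from -0.68 to -0.26. At day 3 it was lost without 1 of the PCGF35 libraries at ES day 0, that at 43.2 CPM (-0.38, adjusted p = 0.0544), or without clone G3 of DelPID_SPOC at ES day 0 (-0.40, adjusted p = 0.0512).

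Among the ETS factors, which are transcribed in response to ERK and carry its output on to other genes, Etv4 rose and Etv5 fell later. Etv4 (chr11:101769741-101785310, minus strand) had 3.32 to 21.0 CPM at ES day 0 (median 11.04), 6.52 to 32.3 CPM at NPC day 3 (median 17.9) and 3.46 to 28.7 CPM at day 6 (median 19.4). It was 1.96-fold higher at day 3 (log2 0.97 ± 0.25, adjusted p = 0.00134) and 1.69-fold higher at day 6 (log2 0.75 ± 0.25, adjusted p = 0.0101). In the SPOC arm, Etv4 stood at 11.7, 7.88 and 7.40 CPM at ES day 0. It stood at 32.3 and 18.6 CPM at day 3 and at 28.7 and 21.2 CPM at day 6. Leaving out 1 library, PCGF35_SPOC with dTAG-13 at day 6 of clone F6, took the day 6 change of Etv4 to 0.48 (adjusted p = 0.0863), and the other library of that group had 3.46 CPM.

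Etv5 (chr16:22381312-22439570, minus strand) had 171 to 412 CPM at day 3 (median 245), close to its ES level, and 51.4 to 273 CPM at day 6 (median 198). Relative to ES day 0 it changed by 0.0954 ± 0.142 at day 3 (adjusted p = 0.59) and by -0.50 ± 0.14 at day 6 (adjusted p = 0.0035). The step from day 3 to day 6 can be taken in all 8 NPC arms, WT and DelPID included. There Etv5 was the only 1 of the 10 genes to pass, at -0.58 ± 0.13 (adjusted p = 0.00137), beside 21.3% of all genes. Without the PCGF35 line the ES to day 6 change of Etv5 was -0.36 (adjusted p = 0.0879). That line had the most Etv5 in ES cells, with 381, 390, 411 and 464 CPM at day 0 against 118 to 302 CPM in the 9 libraries of other lines.

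The immediate early genes fell, Fos most of all. Fos (chr12:85473900-85477270, plus strand), which encodes a subunit of the AP-1 transcription factor, had 3.60 to 85.0 CPM at ES day 0 (median 27.4) and 16.3 to 114 CPM at ES day 1 (median 26.9). At NPC day 3 it had 1.94 to 8.03 CPM (median 3.72) and at day 6 2.87 to 12.7 CPM (median 5.45). Of 26 ES libraries, 25 lay above every one of the 32 NPC libraries, and how many other genes part so far was not counted. The exception was 1 of the PCGF35 libraries with dTAG-13 at ES day 0, at 3.60 CPM, which also had the lowest share of fragments in short genes of any ES day 0 library. Fos was at 0.15 of its ES level at day 3 (log2 -2.73 ± 0.25, adjusted p = 7.88e-11) and at 0.217 at day 6 (log2 -2.20 ± 0.24, adjusted p = 2.93e-09). In single arms the day 3 change ran down to -4.53 in PCGF35 without dTAG-13.

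Egr1 (chr18:34861206-34864956, plus strand), a zinc finger factor induced within minutes of ERK activation, had 4.23 to 53.2 CPM at ES day 0 (median 34.1), 2.42 to 41.1 CPM at day 3 (median 8.08) and 5.28 to 19.8 CPM at day 6 (median 13.4). The groups overlapped. The 41.1 CPM came from 1 of the 2 DelPID day 3 libraries, with 7.22 CPM in the other. Egr1 was lower at day 3 (log2 -1.45 ± 0.27, adjusted p = 3.69e-05) and at day 6 (log2 -0.91 ± 0.27, adjusted p = 0.00427). Ier3 (chr17:35821712-35822911, plus strand), a stress and growth factor response gene, had 0.68 to 4.27 CPM at ES day 0 and 0 to 4.33 CPM at day 6. The 0 was in the shallowest library, DelPID day 6, where 3 counts would be 1.31 CPM. Myc (chr15:61985340-61990361, plus strand), which encodes a growth-promoting transcription factor, had 1.80 to 11.1 and 1.42 to 8.45 CPM. Both passed at day 3 only, Ier3 at -0.71 ± 0.26 (adjusted p = 0.0188) and Myc at -0.60 ± 0.26 (adjusted p = 0.0461). At day 6 they stood at -0.33 ± 0.26 (adjusted p = 0.275) and -0.29 ± 0.26 (adjusted p = 0.342). The Ier3 call at day 3 was lost without 1 of the PCGF35 libraries at ES day 0, either without dTAG-13 (-0.52, adjusted p = 0.102) or with it (-0.61, adjusted p = 0.0568). The Myc call at day 3 was held in 11 of 25 such fits.

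The share of fragments in genes of under 5 kb moved with the stage. It was 2.55 to 6.89% at ES day 0 (median 4.30%), 2.38 to 4.60% at NPC day 3 (median 3.21%) and 2.83 to 5.16% at day 6 (median 3.44%). Across the 58 libraries, deviations of the genes from their group means correlated with this share at r = 0.62 for Spry2, 0.46 for Etv4, 0.40 for Myc and 0.33 or less for the others. These correlations describe libraries that share lines and depths. With the share as a covariate, Fos and Egr1 kept their calls, Spry4 did not pass at day 6 (-0.37, adjusted p = 0.08) or day 3 (-0.42, adjusted p = 0.0599), Ier3 and Myc did not pass at day 3 (adjusted p = 0.064 and 0.47), and Spry2 passed at day 3 (log2 0.37, adjusted p = 0.00522). The part of RNA integrity or of fragmentation in the share was not tested.

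**Figure D3:**
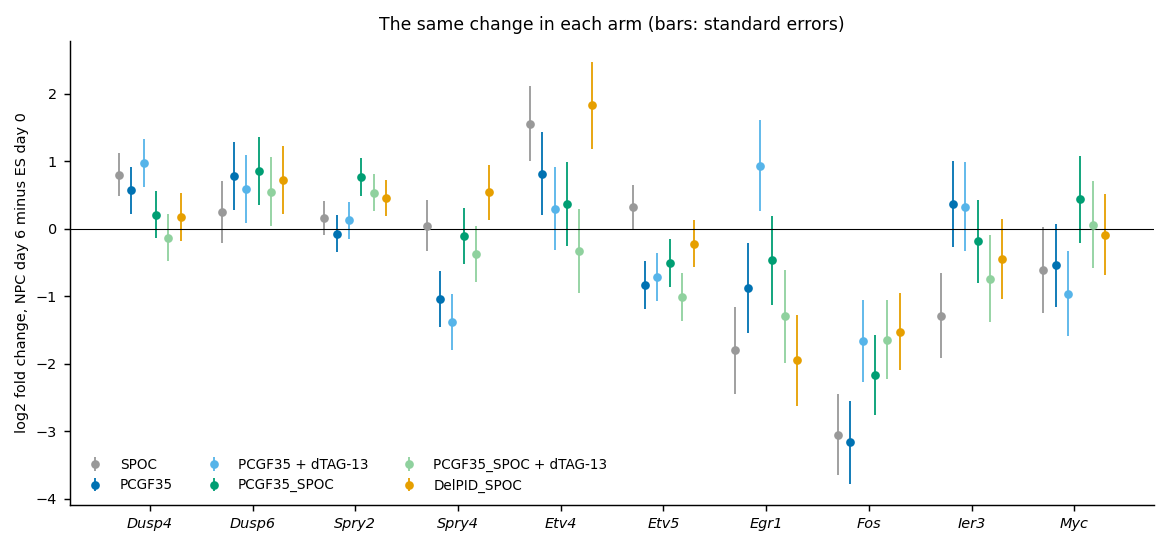
Log2 fold change from ES day 0 to NPC day 6 of each gene in each of the 6 arms, with standard errors. Fos lies below 0 in all 6 arms, Dusp6 above 0 in all 6, and the arms split around 0 for Egr1, Spry4 and Etv4.

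In the SPOC arm the ES groups hold clone C11, which the NPC groups lack. Within single arms, which rest on 2 or 3 libraries a group, few changes passed. At day 6 these were Fos in SPOC (-3.05), PCGF35 (-3.16) and PCGF35_SPOC (-2.16), all without dTAG-13, Egr1 in SPOC (-1.80) and DelPID_SPOC (-1.95), Etv4 in SPOC (1.55) and DelPID_SPOC (1.83), Dusp4 in SPOC (0.80) and Spry4 in PCGF35 with dTAG-13 (-1.38). The share of all genes passing was 34.1% in SPOC, 29.5% in PCGF35, 11.4% in PCGF35 with dTAG-13, 7.37% in PCGF35_SPOC, 5.37% in PCGF35_SPOC with dTAG-13 and 19.2% in DelPID_SPOC. An F test of equal change over the 6 arms found no difference for any of the 10 genes at day 6 (lowest adjusted p = 0.172, lowest unadjusted p = 0.0228, 2.17% of all genes passing) or day 3 (lowest adjusted p = 0.205, lowest unadjusted p = 0.00636, 0.283% passing).

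Levels at a fixed stage differed between arms for a few genes. At ES day 0, before any Xist was induced, Etv5 (F test over 6 arms, adjusted p = 0.00611), Spry4 (adjusted p = 0.0311) and Spry2 (adjusted p = 0.0404) differed, beside 17.6% of all genes. Etv5 and Spry4 were highest in the PCGF35 line, and Spry2 was highest in SPOC with 12.5 to 18.4 CPM. Spry2 lies on chromosome 14, whose level in SPOC libraries reached 1.19 of the other autosomes relative to the mean of all libraries (median 1.03). The Dom share of its median gene was 44.7% in clone C11, 51.4% in D9 and 51.6% in H1. Spry2 itself had a Dom share of 38.1% in C11. The part of chromosome 14 in the Spry2 difference was not tested. In NPC at day 3 only Dusp4 differed over the 8 arms (adjusted p = 0.0255, 9.16% of all genes passing). At day 6 none did (16.3% of all genes passing), with Dusp4 nearest at an adjusted p of 0.0507.

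The study asked how far silencing of the X proceeds when SPEN or Polycomb recruitment is impaired, and the same libraries show the output genes at each degree of silencing. The median share of Dom reads over X-linked genes (X allelic ratio, 0.5 without silencing) was 0.50 to 0.53 at ES day 0. At NPC day 6 it was 0.0833 and 0.0886 in WT, 0.0649 and 0.0833 in PCGF35, 0.225 and 0.228 in PCGF35 with dTAG-13, 0.331 and 0.338 in SPOC, 0.25 and 0.33 in DelPID, 0.328 and 0.402 in PCGF35_SPOC, 0.50 and 0.579 in PCGF35_SPOC with dTAG-13 and 0.496 and 0.508 in DelPID_SPOC. At day 6 the ratio thus ran from 0.0649 to 0.579. Values above 0.5, reached in PCGF35_SPOC with dTAG-13 and in DelPID_SPOC, are no degree of silencing. The study points out that cultures with little silencing can gather cells that have lost an X chromosome, and the ratio does not separate such cells. It interprets the raised ratio in NPC samples of 1 PCGF35_SPOC clone as selection for cells that lost the Cast X. Its legend prints that clone as G3, and since F6 is shown in another figure, the clone is taken here as F10. With the day as a term, the log2 level of a gene was fitted on this ratio over the 32 NPC libraries. The fit took these libraries as independent, although they share lines and clones, so its p-values ignore that structure. The ratio followed the mutations and dTAG-13, so ratio and genotype cannot be told apart. In this fit 1 of the 10 genes passed, beside 13.4% of 14847 genes.

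That gene was Dusp4, which fell by 0.23 on the log2 scale for each 0.1 of ratio (slope -0.23 ± 0.045, adjusted p = 0.00105). In NPC it ranged from 15.8 to 31.8 CPM in WT (median 29.6, 4 libraries), from 19.4 to 36.1 in PCGF35 (median 27.7, 8 libraries), from 18.02 to 26.5 in SPOC (median 18.7, 4 libraries), from 14.2 to 21.7 in PCGF35_SPOC (median 18.6, 8 libraries), from 9.43 to 17.4 in DelPID_SPOC (median 12.0, 4 libraries) and from 9.86 to 13.5 in DelPID (median 12.7, 4 libraries). DelPID, whose ratio was between those of WT and DelPID_SPOC, had as little Dusp4 as DelPID_SPOC. The slope held with day 3 libraries alone (-0.28, adjusted p = 0.042) and without the 2 libraries with the most extreme ratio (adjusted p = 0.004). With the line as a term it was -0.10 (adjusted p = 0.605), and with day 6 libraries alone -0.19 (adjusted p = 0.0713). With the replicate block it was -0.0741 (adjusted p = 0.642). Within the PCGF35 line at day 6, Dusp4 stood at 29.5 and 32.3 CPM without and at 36.1 and 26.9 CPM with dTAG-13, which overlap, although the ratio was higher with dTAG-13 in both libraries. Chromosome 8, which carries Dusp4, differed in clone G3 of DelPID_SPOC. Its median gene stood at 0.717 of the other autosomes relative to the mean of all libraries, against 1.00 in clone A8. The Dom share of the median gene was 50.5% in G3, against 35.2% in A8 and 34.5 to 36.8% in the other lines. Dusp4 itself had a Dom share of 51.3% in G3 and 33.4% in A8. Its level was lower in G3 in 4 of 4 groups.

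**Figure D4:**
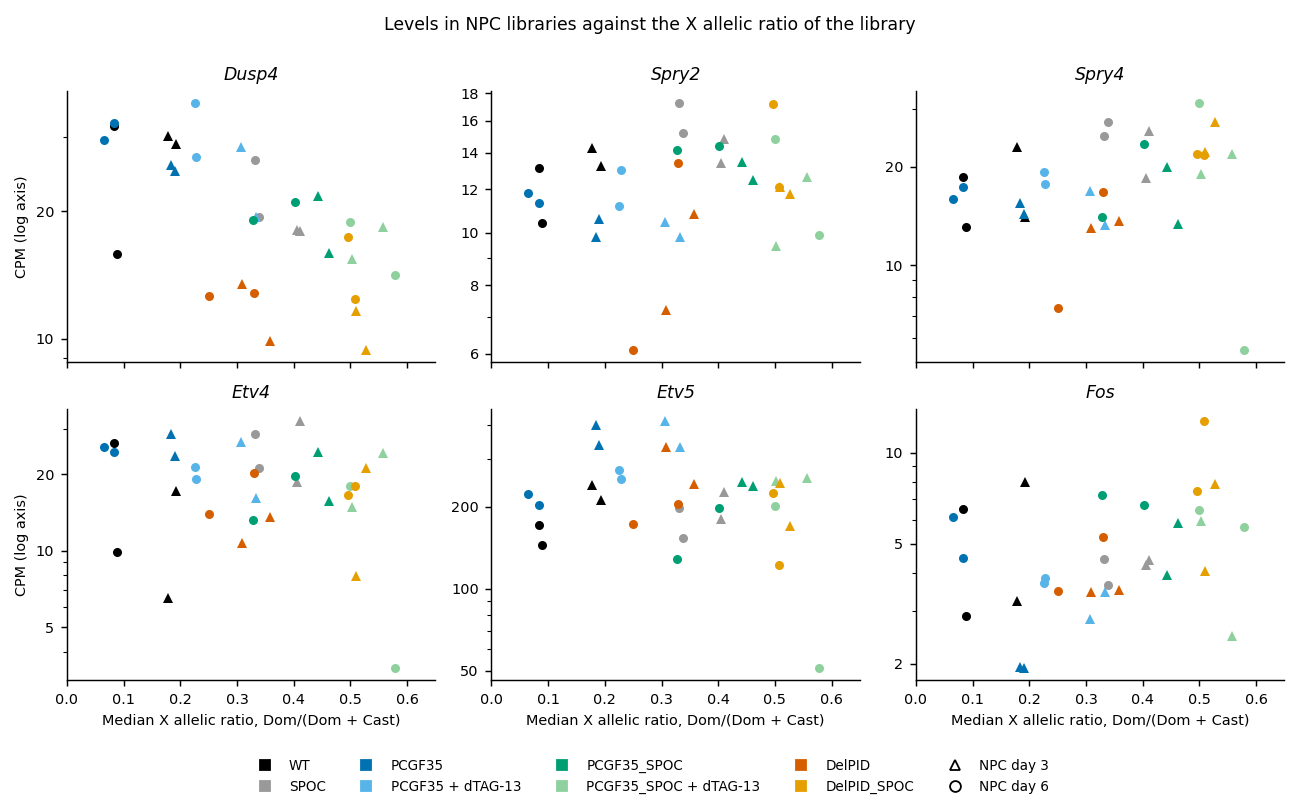
CPM (log axis) of 6 genes in the 32 NPC libraries against the X allelic ratio of the library, with day 3 as triangles, day 6 as circles and the line and treatment in colour. Dusp4 is lower at higher ratios with the DelPID lines lowest, and no such order is seen for Etv4 or Spry2.

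The slopes of the other 9 genes did not pass. Fos was nearest at 0.16 ± 0.060 per 0.1 of ratio (adjusted p = 0.0745), followed by Etv5 at -0.13 ± 0.052 (adjusted p = 0.0903) and Spry4 at 0.0929 ± 0.0552 (adjusted p = 0.266). Fos passed without the 2 most extreme libraries (slope 0.21, adjusted p = 0.0384) and in 3 of the fits that left out 1 library (WT at day 3, slope 0.21, adjusted p = 0.0101, and clone F10 of PCGF35_SPOC with dTAG-13 at day 3 or day 6, slope 0.18 in each, adjusted p = 0.0306 and 0.0439) but had a slope of -0.0777 with the replicate block (adjusted p = 0.732). Etv5 passed without 1 DelPID_SPOC library at day 6 (-0.16, adjusted p = 0.0493). Spry4 passed only when 1 library was left out, PCGF35_SPOC with dTAG-13 at day 6 of clone F10 (slope 0.14, adjusted p = 0.016). That library had the highest ratio, 0.579, and low levels of Etv5 (51.4 CPM), Etv4 (3.46) and Spry4 (5.53), where its partner had 200 CPM, 17.9 and 31.4. It belongs to the clone taken above as the one in which the study sees selection for cells without the Cast X.

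None of the 10 genes passed for the SPOC mutation in NPC. Averaged over the WT, PCGF35 and DelPID backgrounds, the changes at day 6 ran from -0.19 to 0.55, with the 2 Sprouty genes highest: Spry4 at 0.55 (95% interval 0.0573 to 1.04, adjusted p = 0.257) and Spry2 at 0.42 (0.0967 to 0.749, adjusted p = 0.184). Both were past 0.05 before adjustment, and 1.39% of all genes passed after it. Spry2 passed with the replicate block (0.45, adjusted p = 0.0237). The Fos interval was -0.30 to 1.16 and that of Dusp6 -0.79 to 0.41, which leaves room for changes of either sign in both. At day 3 the changes ran from -0.43 in Dusp4 (interval -0.841 to -0.0187, adjusted p = 0.335) to 0.58 in Fos, with 1 gene past 0.05 before adjustment and 1.77% of all genes passing after it. In the single backgrounds at day 6, none passed and none was past 0.05 before adjustment for SPOC against WT (0.00% of all genes), PCGF35_SPOC against PCGF35 (0.00%) or DelPID_SPOC against DelPID (0.0308%). Spry4 was higher with the mutation in each, by 0.80, 0.15 and 0.70, and Spry2 by 0.53, 0.29 and 0.44. In DelPID, the shallowest library had 7.42 CPM of Spry4 and 6.11 CPM of Spry2, where its partner had 16.7 and 13.4 CPM. DelPID_SPOC had 21.9 and 21.7 CPM of Spry4 and 17.2 and 12.1 CPM of Spry2. Spry4 lies on chromosome 18, whose median gene changed by 0.145 between DelPID and DelPID_SPOC. DESeq2 likewise called none of the 10 in these comparisons.

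The largest contrast in silencing, PCGF35_SPOC with dTAG-13 against PCGF35 without it, was used to ask whether the ES to day 6 change differed. The day 6 libraries with dTAG-13 include the F10 library described above. No member passed the interaction test (lowest adjusted p = 0.533, 0 past 0.05 before adjustment), and 0.00616% of all genes did. Fos fell less without silencing (difference 1.52, 95% interval -0.153 to 3.18) and Etv4 rose less (-1.15, interval -2.93 to 0.638), but neither was distinguishable from 0 at this replication.

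For the addition of dTAG-13, none of the 10 genes passed in NPC at day 6. In PCGF35 the differences ran from -0.47 in Fos (interval -1.74 to 0.798) to 0.32 in Etv5 (-0.397 to 1.04), and in PCGF35_SPOC from -1.38 in Egr1 (-2.79 to 0.0259) to -0.0236 in Spry4 (-0.866 to 0.818). With edgeR 0 passed in either line, 0 were past 0.05 before adjustment, 0.00% of all genes passed and DESeq2 called none of the 10. In PCGF35_SPOC, without the dTAG-13 library of clone F6, Etv5 (-1.71, adjusted p = 0.029) and Spry4 (-1.80, adjusted p = 0.037) passed, and only the F10 library described above was then left in that group. In ES day 0, averaged over both lines, Egr1 (-1.15, interval -2.11 to -0.199) and Fos (-1.35, interval -2.16 to -0.542) were past 0.05 before adjustment, and none of the 10 passed after it (0.00% of all genes). Fos in PCGF35 stood at 13.4 and 85.0 CPM without and 21.0 and 3.60 CPM with dTAG-13, and in PCGF35_SPOC at 35.7 and 28.2 against 20.4 and 18.2 CPM. The library at 3.60 CPM is the one with the low short-gene share, and the part of that share in the difference was not tested.

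After a single day of doxycycline in ES cells the X allelic ratio was 0.324 and 0.342 in PCGF35, 0.399 and 0.417 in PCGF35 with dTAG-13, 0.433 to 0.446 in SPOC, 0.476 and 0.483 in PCGF35_SPOC, 0.508 and 0.512 in PCGF35_SPOC with dTAG-13 and 0.513 and 0.514 in DelPID_SPOC. Averaged over these 6 arms, the changes of the 10 genes from day 0 ran from -0.35 (Myc, interval -0.849 to 0.158) to 0.37 (Etv4, interval -0.131 to 0.871). With edgeR 0 passed, 0 were past 0.05 before adjustment and 0.0924% of all genes passed. DESeq2 called none of the 10. Single arms spread more widely, and none of the 10 passed in any. Fos in SPOC had 46.7, 33.3 and 26.6 CPM at day 0 and 62.1, 70.9 and 114 CPM at day 1 (log2 1.14, interval 0.223 to 2.06, unadjusted p = 0.0164 from the edgeR fit, adjusted p = 1). Egr1 in PCGF35 with dTAG-13 had the largest single-arm change (log2 1.37, interval 0.00831 to 2.73, adjusted p = 1).

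Some differences between the libraries of a group recurred across the groups of a line. Dusp6 was higher in clone F10 than in F6 of PCGF35_SPOC in 8 of 8 groups, by 1.50 to 3.40 times, with 15.8 against 4.63 CPM in ES day 0 with dTAG-13. Myc was lower in clone A8 than in G3 of DelPID_SPOC in 4 of 4 groups, at 0.218 to 0.585 of the G3 level, and stood at 2.42 against 11.1 CPM at ES day 0. Etv4 was lower in A8 as well, in 4 of 4 groups at 0.378 to 0.918. Such recurrence was also seen between repeat experiments of lines with no clones. Etv4 was higher in replicate 1 than in replicate 2 of PCGF35 in 8 of 8 groups, by 1.05 to 2.29 times, and Myc in WT in 2 of 2 groups, by 2.90 to 3.11 times. In WT this was not particular to Myc. Dusp6, Egr1, Etv4, Fos and Ier3 were also higher in replicate 1 in 2 of 2 groups, from 1.985 times (Dusp6) to 2.68 times (Etv4). Dusp4, Spry2, Spry4 and Etv5 were higher there in 1 of 2. How many of all genes recur in this way was not counted. These ratios describe 1 library each and were not tested.

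The hybrid genome allowed the 2 alleles of each gene to be counted. Ier3 gave no allelic fragments. In Etv4 the Dom share differed widely between lines: 69.6% in PCGF35 (95% Wilson interval 67.8 to 71.3%, 2538 fragments), 66.4% in PCGF35_SPOC, 51.5% in WT, 40.8% in DelPID, 38.6% in SPOC and 36.8% in DelPID_SPOC. The median gene of chromosome 11 had 68.8% in PCGF35, 68.5% in PCGF35_SPOC, 54.3% in WT, 36.6% in DelPID and 35.3% in DelPID_SPOC, so that Etv4 moved with its chromosome in these lines. In SPOC the chromosome stood at 49.7%, above Etv4 at 36.0 to 41.3% (Wilson). By clone, Etv4 had 37.0% in D9 and 37.1% in H1, where the chromosome had 51.8% and 49.6%, but 45.7% in C11 (39.5 to 52.1%), where the chromosome had 47.8%. Also in SPOC, the level of chromosome 11 was 0.784 of the other autosomes relative to the mean of all libraries. It was 0.883 in WT and 1.05 to 1.07 in the PCGF35 and DelPID lines. Spry4 and Egr1, both on chromosome 18, had Dom shares of 77.8% and 71.8% in DelPID and 68.8% each in DelPID_SPOC, against 53.3 to 58.02% and 45.2 to 54.4% in the other lines. Chromosome 18 had 74.6% and 69.1% in the DelPID lines, where its level was also 1.22 and 1.37. Etv5 was near balance in every line, at 47.6 to 53.0%. Intervals cover counting error only, since fragments carried no molecular identifiers.

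**Figure D5:**
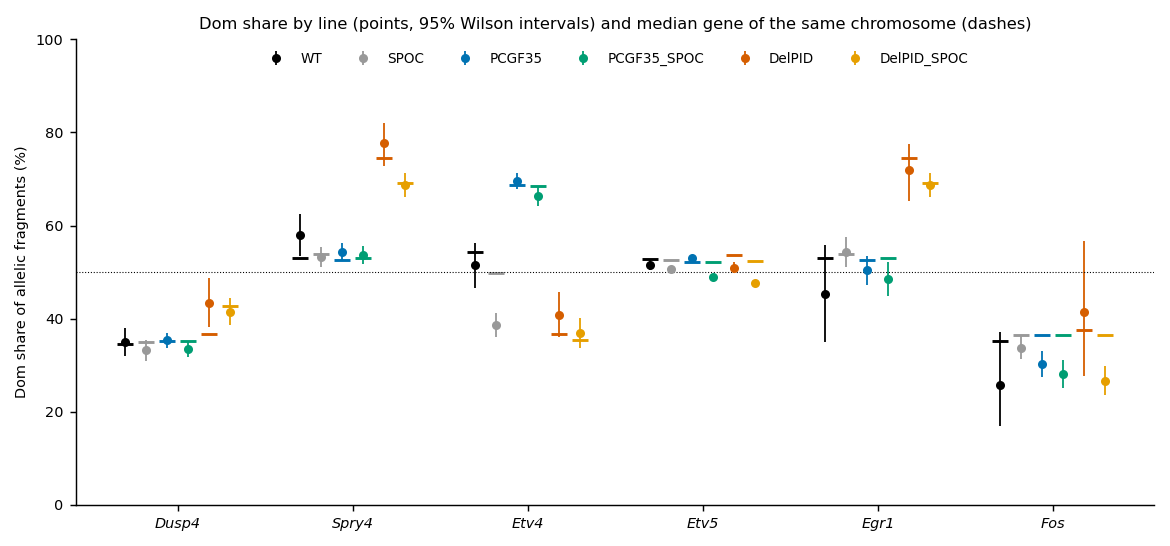
Dom share of allelic fragments (percent) of 6 genes in each line, pooled over its libraries, with 95% Wilson intervals, and as dashes the share of the median gene of the same chromosome. Etv4, Spry4 and Egr1 lie near their dashes in most lines, and Etv4 in SPOC lies below its dash.

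Other genes of the pathway, from lists drawn up by function, showed no uniform direction either. The shares to set these counts against at day 6 are the 29.4% of all genes that were higher and the 29.4% that were lower, and the X-linked genes named here lie on a chromosome whose median of 620 genes changed by -0.60. Of 25 genes of the RAS-ERK core, 13 were higher and 4 lower at day 6 (median log2 fold change 0.29). The adaptor Shc1 (0.90 ± 0.10), the MEK gene Map2k2 (0.75 ± 0.08) and the ERK substrate kinase Rps6ka2 (0.52 ± 0.11) rose most, and the X-linked Rps6ka3 (-0.80 ± 0.09) and Elk1 (-0.38 ± 0.06), a kinase and a transcription factor downstream of ERK, fell. Of 14 genes of growth factor ligands and receptors, FGF and other, 5 were higher and 7 lower. The higher were led by Fgf5 (2.26 ± 0.56), and by Pdgfra (1.71 ± 0.36) and Egfr (1.02 ± 0.23), which are not FGF receptors. The lower were led by Fgfr3 (-1.02 ± 0.23), Fgf17 (-0.96 ± 0.23) and the stem cell factor receptor Kit (-0.88 ± 0.18).

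Of 17 other ERK inhibitors, 8 rose at day 6 and 6 fell (29.4% of all genes in each direction). Spred3 (1.44 ± 0.22), Spred2 (0.68 ± 0.10) and Il17rd (0.58 ± 0.09), inhibitors related to Sprouty or acting at the receptor, rose. Klhl13 (-1.54 ± 0.11), the phosphatase Dusp5 (-0.93 ± 0.18), the receptor inhibitor Errfi1 (-0.78 ± 0.12) and the phosphatase Dusp9 (-0.76 ± 0.20) fell. Dusp9 and Klhl13 are X-linked. Dusp9 had 8.33 to 25.5 CPM at ES day 0, 1.25 to 5.32 at day 3 and 2.13 to 17.2 CPM at day 6. It fell by 1.87 on the log2 scale at day 3 (SE 0.21, adjusted p = 6.14e-09), when the X-linked median was -0.47, and, unlike Klhl13, did not pass for the SPOC mutation at day 6 (-0.47 ± 0.31, adjusted p = 0.477). Klhl13 was higher with the SPOC mutation (0.88 ± 0.15, adjusted p = 0.00142), as were the X-linked kinase gene Araf (0.45 ± 0.12, adjusted p = 0.0488) and Elk1 (0.54 ± 0.09, adjusted p = 0.00077), beside a median of 0.35 for the 620 X-linked genes in this comparison.

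Of 21 listed immediate early genes outside the 10, 19 were tested. At day 3, 10 of them were lower and 1 higher, with a median of -0.82, beside 29.2% of all genes lower and 26.4% higher. At day 6, 5 were lower and 3 higher, beside 29.4% in each direction. Fosb (-3.04 ± 0.44), Egr2 (-1.83 ± 0.41) and the stress phosphatase Dusp1 (-1.69 ± 0.18) fell most at day 6, whereas Ier5 (0.74 ± 0.20), Trib1 (0.60 ± 0.18) and Arc (0.52 ± 0.20) were higher. Dusp1 was also the gene whose mean log2 CPM over the 28 groups was most like that of Fos (Pearson r = 0.98 among 10995 genes), followed by Rfk (0.95) and Gmppa (0.94). For Egr1 these were Hbegf (0.84), Kit (0.83) and Atg12 (0.81), for Dusp4 Cdcp1 (0.85), Arhgef16 (0.84) and Ap1m2 (0.84), and for Etv5 Hspbap1 (0.89), Ola1 (0.85) and Ccdc3 (0.83). Within the 10, Fos and Egr1 were most alike over the 28 groups (r = 0.78), with r = 0.83 over the 12 ES groups and 0.15 over the 16 NPC groups. Fos and Dusp6 had r = -0.55 over all groups, but 0.14 over the ES groups and 0.35 over the NPC groups. Their opposite directions over all groups were thus not seen within a stage. These correlations are descriptions over group means that share lines. Of 13 other delayed targets, read against the same 29.4%, 6 were higher at day 6, led by Vgf (2.35 ± 0.38), Shc4 (1.99 ± 0.29) and Phlda1 (1.26 ± 0.23), and 5 lower, led by Emp1 (-1.56 ± 0.29), Bhlhe40 (-1.13 ± 0.22) and Mcl1 (-1.05 ± 0.09).

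The stage of the cultures was checked on marker genes. The shares of all genes to set these counts against are 29.4% higher and 29.4% lower at day 6, and 26.4% and 29.2% at day 3. All 10 naive pluripotency genes were lower at both NPC days, among them Zfp42 (-1.84 ± 0.17 at day 6) and Tbx3 (-2.37 ± 0.25), and Nanog still had 13.4 to 82.2 CPM at day 6. Of 5 formative genes, Dnmt3b, Pou3f1 and Sox3 rose by 1.44, 1.52 and 2.28 at day 6. Of 10 neural progenitor genes 6 could be tested, and Nes, Vim and Sox11 rose. Sox1, a defining neural gene, had 0 counts in all ES day 0 and NPC day 6 libraries, where 3 counts would be 0.157 CPM in the deepest NPC day 6 library, and Hes5 and Zic1 were at or below 0.436 CPM, so these defining neural markers were at or near 0 while Nes, Vim and Sox11 rose. Of 6 endoderm and mesoderm genes tested, 4 rose, led by Foxa2, Gata4 and Gata6, and Eomes fell, with Gata6 at 0.264 to 58.9 CPM. Of 7 feeder fibroblast genes tested, Col1a2 and Dcn rose and Thy1 fell, with Lum at 0.135 CPM or less. The part of these cells in the levels of the 10 genes was not tested. Over the ratio of X silencing, 6 of 10 naive genes rose with the ratio, beside 13.4% of all genes passing in either direction, led by Nanog (0.35 ± 0.06 per 0.1, adjusted p = 0.00015).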

How the data were processed

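ChrRNA-seq libraries were made with a stranded total RNA kit. According to the methods and labels, the authors removed ribosomal reads with bowtie2 2.3.2, aligned the rest with STAR 2.4.2a to an mm10 genome masked at polymorphic sites, assigned fragments to the parental alleles (SNPsplit) and tallied them over each gene, introns included and by strand (featureCounts). The deposited values used here are raw counts per gene, in total and per allele, and the deposited allelic ratio of X-linked genes is the Dom fraction (checked against the deposited allelic counts over 246 genes). Depth ran from 2292261 to 30005305 fragments in genes.

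Total counts of all 58 libraries were fitted with edgeR 4.0.16 (R 4.3.3): filterByExpr, TMM scaling, 1 mean per group and the quasi-likelihood test with 30 residual degrees of freedom. P-values were adjusted by Benjamini and Hochberg over 16227 genes, or 14847 for the slope on the X allelic ratio in the 32 NPC libraries, with a threshold of 0.05. A contrast over 6 arms gave each arm equal weight. The SE is the log2 fold change divided by the square root of F. The study states no such test. Calculations for CPM and alleles used Python 3.11.15, with a pseudocount of 0.5 CPM in log2 values. A gene entered a chromosome median of the allele shares with at least 20 allelic fragments, and entered likeness and chromosome levels with a mean of at least 5 CPM.

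The 10 genes and the 10 other lists were chosen with earlier results of these data known. From each other list at most 3 genes a direction were named, those with the largest change past the threshold, plus the X-linked Dusp9 and Klhl13 and markers whose absence bears on a label. Some genes of these lists are not reported here. Alternatives were RLE scaling, DESeq2 1.42.0, no count filter, autosomal genes alone, the compared groups alone, a replicate block and each library left out, and, chosen after seeing the data, the short-gene share as a covariate and the fits without the PCGF35 line. Replicate numbers mark clones in the SPOC, PCGF35_SPOC and DelPID_SPOC lines, so libraries of 1 number there come from 1 cell line, and blocks stay within a line. The study also differentiated WT beside SPOC, and DelPID beside DelPID_SPOC, in parallel, but which libraries were run together is not given in the sources used here, so no fit uses that pairing. Deviations of same-numbered libraries correlated at 0.201 to 0.950 in PCGF35_SPOC, 0.357 to 0.927 in DelPID_SPOC, -0.108 to 0.800 in SPOC, -0.028 to 0.849 in PCGF35, 0.719 in WT and 0.633 in DelPID. The fits were tested on simulated counts.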

Additional observations from a re-analysis of the deposited data

How the results depend on the processing

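The directions of Fos, Egr1, Etv4, Dusp4, Dusp6 and Spry2 from ES day 0 to NPC day 6 were the same under every alternative run. Without the PCGF35 line, 5 of the 10 genes passed at day 6 and 4 at day 3, beside 8074 and 7970 of 16227 genes. Spry4 there turned from lower to 0.0242 at day 6 and 0.018 at day 3. In the full fits 58.9% of all genes passed at day 6 and 55.6% at day 3. Leaving out 1 library at a time gave 7 to 8 genes at day 6, 4 to 6 at day 3, 1 to 3 for the slope on the X allelic ratio (3 without PCGF35_SPOC with dTAG-13 at day 6 of clone F10) and 0 to 2 for dTAG-13 in PCGF35_SPOC at day 6, where 2 genes passed without the library of clone F6 and the lone library left is assumed to vary like the other groups. For the slope, 0 of the 10 genes passed with the replicate block (1464 of all genes), with NPC day 6 alone (408) or with the line as a term (135). Without the 2 most extreme libraries 2 passed (1572 of all genes). With the replicate block 1 gene, Spry2, passed for the SPOC mutation at day 6, beside 2114 of all genes. At day 3 against ES 7 of the 10 passed with the block, Dusp6 being the one added, beside 10410 of all genes. In contrasts between lines the block does not count the difference between clones as error. The block changed no other call of the 10 genes beside that of Dusp4 on the slope. The cause of these shifts was not tested.

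Counts over all genes moved more. For the SPOC mutation at day 6, 225 genes passed, beside 96 among autosomal genes alone, 8 with the compared groups alone, 489 with DESeq2 and 2114 with the block. At day 3, 287 passed, beside 119 among autosomal genes, 440 with DESeq2 and 1535 with the block. On the slope 1987 passed, beside 993 with the short-gene covariate, 289 and 408 at day 3 and day 6 alone, and 135 with the line as a term. For 1 day of doxycycline 15 passed, beside 4 among autosomal genes, 22 with the short-gene share, 32 with the compared groups alone, 36 with DESeq2 and 96 with the block. For DelPID_SPOC against DelPID 5 passed, beside 0 among autosomal genes or with the compared groups alone, 18 with DESeq2 and 419 with the block. The block gave 921 genes for SPOC against WT, 311 for PCGF35_SPOC against PCGF35, 156 for dTAG-13 in PCGF35 and 700 for the difference in differentiation, where 0 to 1 passed without it. With the compared groups alone 406 genes passed for SPOC against WT and 222 for dTAG-13 in PCGF35, and with DESeq2 82 for SPOC against WT, 16 for PCGF35_SPOC against PCGF35 and 8 for the difference in differentiation.

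Depth and replication limit these results. On simulated counts the mean over 6 arms recovered 61.5% of changes of 0.5 on the log2 scale, 86.4% of 1 and 100% of 2 (15825 genes), whereas SPOC against WT, with 2 libraries a group, recovered 0%, 16.4% and 66.7%. Single-background results that did not pass, such as SPOC against WT, can therefore hide changes of 2-fold. Simulated libraries were independent, few genes were changed and no single arm was simulated, so these shares need not hold for single arms. In the SPOC arm a Dusp4 change of under 2-fold passed.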
